A study of Mus musculus with 46 samples.

Results

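The comparison described here is zQ175 against wild type at 12 weeks of age, in cells sorted from the striatum as glial progenitors. It takes every library that the labels give to 1 of these 2 groups, 12 of the 46 libraries in the series, 6 zQ175 and 6 wild type. The zQ175 mouse carries an expanded CAG repeat within its own Htt gene, the mouse counterpart of the human Huntington disease gene. Its controls were wild-type littermates, and the sources used here do not say whether the zQ175 mice carried 1 or 2 expanded alleles. All mice of both groups carried the PDGFRA-EGFP reporter, which marks glial progenitors and was used for the sort. Striata of 3 to 4 mice of a litter and genotype were pooled for each sort, with the subventricular zone removed, so each library is a pool and not an animal. The series also holds zQ175 pools and their wild-type littermates at 1 year, and the R6/2 line, which carries a transgene of a human HTT fragment with an expanded repeat, at 6 and 12 weeks. The series title concerns remyelination in these mice and its dependence on TCF7L2.

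Huntingtin is a large scaffold protein found in nearly all cells, and its expanded form damages the striatum first. Oligodendrocyte progenitors are the dividing cells that carry the PDGF alpha receptor and mature into oligodendrocytes, which wrap axons in myelin. Myelin is rich in cholesterol and galactolipids, so a maturing oligodendrocyte runs sterol, fatty acid and sphingolipid synthesis at a high level. Ribosomes, mitochondria and proteasomes are assembled from many short protein subunits whose mRNAs are abundant in most cells.

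Each library held between 29409075 and 42447698 expected read counts, and total counts did not separate the groups (two-sided exact permutation test, p = 0.377). Levels are given below as CPM, each gene's share of its library's reads scaled by the TMM method. Transcripts of mature oligodendrocytes dominated the sorted pools. Mbp, which compacts myelin, had 1030 to 1230 CPM per kilobase of exon in wild-type pools, against 0.0421 to 2.38 for Pdgfra and 0.0955 to 0.775 for Cspg4, another progenitor marker. In zQ175 pools the same 3 genes had 1060 to 1190, 0.357 to 1.37 and 0.0797 to 0.785. Levels of the labelled cell's defining receptor were thus low in both groups, and values below describe RNA of the whole pool. In such bulk pools fewer cells of a type and less RNA per cell cannot be told apart. Markers of other cells were present too, at levels that differed by gene. The 16 astrocyte markers summed to 339 to 544 CPM in zQ175 pools and 349 to 510 in wild-type pools, with Gfap at 4.68 to 12.9 and 6.19 to 13.7 and Slc1a3 at 112 to 136 and 119 to 151. The 7 neuronal markers tested summed to 111 to 165 and 105 to 156 CPM, with Snap25 at 0.532 to 2.01 and 0.968 to 2.04. The 13 endothelial ones summed to 247 to 292 and 269 to 305 CPM. Most of that was Slc2a1, at 195 to 226 and 199 to 269, while Cldn5 was at 1.56 to 7.39 and 1.69 to 4.9. Red blood cell markers varied most, at 131 to 422 and 20 to 329 CPM. These ranges overlapped between the groups, and the part of other cells in the results was not tested. The pools differed in sex. The Y-linked Ddx3y was at 0 CPM in wild-type pool 1, and Xist, the transcript of the inactive X, was at 0 in zQ175 pool 1 and in wild-type pools 2 and 3. Pool 2 of the zQ175 group stood apart from the other 11 on the first principal component, and it had 91.1 CPM of the fibroblast gene Dcn.

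Htt itself, the altered gene, was lower in every zQ175 pool than in any wild-type pool. It ranged from 3.18 to 7.87 CPM with a median of 4.06 in zQ175 pools, and from 8.64 to 14.2 with a median of 11.5 in wild-type pools. The fold change was 2.42-fold lower (log2 fold change -1.28 with a standard error of 0.22, adjusted p = 0.0412). As a single value, the difference of mean log2 levels was -1.24, with a two-sided exact permutation p of 0.00216, the smallest that the 924 splits of 12 pools allow. Htt lies on chromosome 5 at 34761740 to 34912534 (GRCm38, GENCODE M21 annotation). Pdgfra, the gene behind the reporter, was at 3.58 to 13.7 CPM (median 5.89) in zQ175 pools and 0.422 to 23.9 (median 10.5) in wild-type pools, with full overlap. Its log2 difference was -0.0561 (two-sided exact permutation p = 0.952).

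Few genes passed the test. Of 14372 genes tested with edgeR's quasi-likelihood test, 12 had an adjusted p below 0.05, which is 0.0835% of them. Of these, 7 were higher in zQ175 pools (0.0487%) and 5 were lower (0.0348%). In all 12 the ranges of the groups did not overlap, as they did not in 226 tested genes (1.57%), 124 of them higher (0.863%) and 102 lower (0.71%). The 12 genes are Htt, 5031410I06Rik, Gm5067, Gm6089, Gm21168, Slc35f6, Hectd4, Dnmt3a, Prkdc, Olfm1, Rpl13a and Gm11361. Without the adjustment, 2143 genes (14.9%) had p below 0.05, 974 higher (6.78%) and 1169 lower (8.13%).

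**Figure D1:**
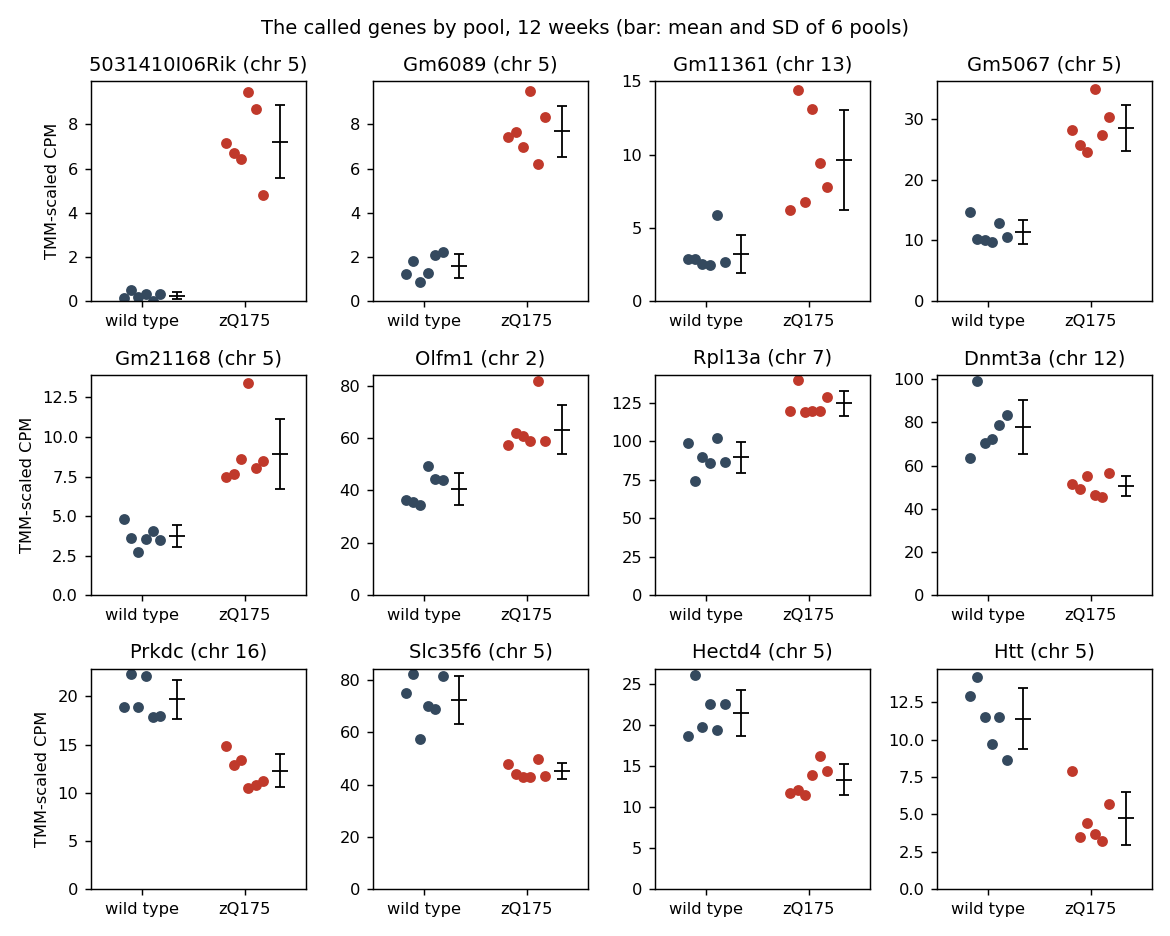
TMM-scaled CPM of each of the 12 called genes in the 6 wild-type (dark blue) and 6 zQ175 (red) pools at 12 weeks, with the mean and SD of each group as a bar. In every panel the 2 groups do not overlap, from 5031410I06Rik, at 4.81 to 9.49 CPM against 0 to 0.513, to Htt, at 3.18 to 7.87 against 8.64 to 14.2.

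Of the 12 called genes, 7 lay on chromosome 5 with Htt. Of these, 4 rose and sit within a stretch that begins 8.81 Mb and ends 8.66 Mb before the start of Htt. Gm5067, Gm6089 and Gm21168 are annotated as processed pseudogenes, that is, copies of a spliced mRNA set back into the genome. Their sequences resemble Rrs1, a gene for a ribosome assembly factor on chromosome 1. Over the aligned bases they were 94.8%, 93.6% and 95.2% identical to its transcript. A 60-base stretch of the Rrs1 coding sequence, from coding base 137 to 196, is shown with the matching stretch of each copy, because these differences are what lets reads be assigned to a copy. Sequences are from GENCODE M21, 5′ to 3′, and capitals mark the bases that differ from Rrs1.
Rrs1: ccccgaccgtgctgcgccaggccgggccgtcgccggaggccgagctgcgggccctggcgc
Gm5067: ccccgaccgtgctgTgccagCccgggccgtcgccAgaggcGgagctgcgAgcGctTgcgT
Gm21168: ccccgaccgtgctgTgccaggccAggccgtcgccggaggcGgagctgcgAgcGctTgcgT
Gm6089: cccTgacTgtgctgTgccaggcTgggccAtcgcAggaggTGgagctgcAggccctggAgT
It is the stretch with the most positions where at least 1 copy differs. In the order shown, the copies differ from Rrs1 at 8, 7 and 11 bases. All 3 copies rose. Gm5067 (chromosome 5, 26007027 to 26008035) was at 24.6 to 34.9 CPM (median 27.8) in zQ175 pools and 9.7 to 14.7 (median 10.4) in wild-type pools, a 2.51-fold rise (log2 fold change 1.33, SE 0.13, adjusted p = 0.000125). Gm6089 (26070537 to 26071474) was at 6.19 to 9.52 CPM (median 7.55) against 0.884 to 2.25 (median 1.54), a 4.84-fold rise (adjusted p = 0.000238). Gm21168 (25956626 to 25957721) was at 7.49 to 13.4 CPM (median 8.24) against 2.75 to 4.81 (median 3.6), a 2.4-fold rise (adjusted p = 0.0151). No pool of either group fell between the groups for any of the 3. Rrs1 itself was not called, with 26.1 to 36.5 CPM against 21.8 to 34.4 (log2 fold change 0.10, adjusted p = 0.762). The copies summed to 45.1 ± 6.7 CPM (SD, n = 6) in zQ175 pools and 16.7 ± 2.68 CPM (SD, n = 6) in wild-type pools. With Rrs1 added the sums were 66.2 to 85.7 CPM in zQ175 pools and 35.5 to 49.9 in wild-type pools, still without overlap.

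The widest change of all called genes was that of 5031410I06Rik (chromosome 5, 26098668 to 26105362), a protein-coding gene of a local family. It was at 4.81 to 9.49 CPM (median 6.96) in zQ175 pools and 0 to 0.513 (median 0.268) in wild-type pools. The fitted log2 fold change was 4.78 (SE 0.47, adjusted p = 0.000125). Its level rests on how the counting program divided reads among near-identical neighbours, since Gm21698 is 99.7% and Gm21663 99.8% identical to it over the aligned bases. The 7 aligned copies together were at 11 to 24.1 CPM in zQ175 pools and 12.1 to 25.5 in wild-type pools. With 5031410I06Rik added, the sums were 15.8 to 31.8 CPM and 12.6 to 25.5 CPM, which overlap. Reads of this family are therefore reported as uncertain at the level of the single gene.

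The other 2 called genes of chromosome 5, besides Htt, were lower. Slc35f6 (30647933 to 30659729), a membrane protein of the nucleotide-sugar transporter family, lies 4.11 Mb before Htt. It was at 42.8 to 49.8 CPM (median 43.7) in zQ175 pools and 57.5 to 82.4 (median 72.5) in wild-type pools, with a log2 fold change of -0.68 (SE 0.091, adjusted p = 0.0038). Hectd4 (121220219 to 121368577), which encodes a protein with a ubiquitin-ligase domain, lies 86.5 Mb beyond Htt. It was at 11.5 to 16.2 CPM (median 13) against 18.6 to 26.1 (median 21.1), with a log2 fold change of -0.69 (SE 0.12, adjusted p = 0.0487). By distance from Htt, the share of genes with a low p was highest in 1 window. Of 111 tested genes within 5 Mb, 2 were called and 18 (16.2%) had an unadjusted p below 0.05. Of the 48 genes 5 to 10 Mb away, 4 were called, 16 (33.3%) had such a p and 6 (12.5%) had groups without overlap. Of 85 genes 10 to 20 Mb away, 0 were called and 8 (9.41%) had such a p. Off chromosome 5, 5 of 13400 genes were called, and 14.9% had such a p. The windows beyond 5 Mb were chosen after the positions of the calls were known.

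**Figure D2:**
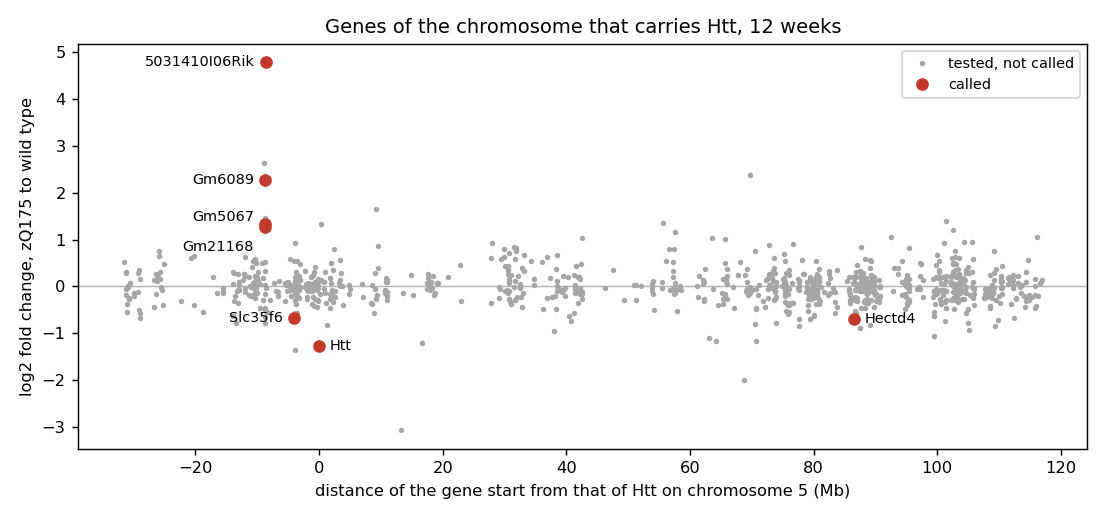
Log2 fold change of zQ175 against wild type for each tested gene of chromosome 5, plotted by the distance of its start from that of Htt in Mb. The 7 called genes are red and named, and 4 of them, 5031410I06Rik, Gm6089, Gm5067 and Gm21168, share 1 position 8.66 to 8.81 Mb before Htt.

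The remaining 5 called genes lie on other chromosomes. Dnmt3a, which sets new DNA methylation, fell on chromosome 12 (3806007 to 3914443), with 45.7 to 56.6 CPM (median 50.2) in zQ175 pools and 63.6 to 99.4 (median 75.7) in wild-type pools (log2 fold change -0.62, SE 0.10, adjusted p = 0.0365). Prkdc, the catalytic subunit of the DNA-dependent protein kinase of double-strand break repair, fell on chromosome 16, with 10.5 to 14.8 CPM (median 12.1) against 17.9 to 22.3 (median 18.9; log2 fold change -0.68, adjusted p = 0.0434). Olfm1, a secreted glycoprotein of the nervous system, rose on chromosome 2, with 57.2 to 81.8 CPM (median 59.9) against 34.6 to 49.4 (median 40.1; log2 fold change 0.64, adjusted p = 0.0434). In none of these 3 did the groups overlap. Rpl13a, a protein of the large ribosomal subunit, rose on chromosome 7, with 119 to 140 CPM (median 120) against 74.1 to 102 (median 88.3; log2 fold change 0.48, SE 0.083, adjusted p = 0.0412). Gm11361 on chromosome 13 rose from 2.5 to 5.87 CPM (median 2.76) in wild-type pools to 6.21 to 14.4 (median 8.6) in zQ175 pools (log2 fold change 1.58, adjusted p = 0.0412). It is 99.3% identical over the aligned bases to Rps18, a protein of the small ribosomal subunit. Rps18 itself was not called (log2 fold change 0.06), so the split of reads between the 2 is uncertain. Rps18, Gm11361 and the further copy Gm10260 summed to 139 ± 16 CPM (SD, n = 6) against 107 ± 20.6 CPM (SD, n = 6), with overlapping ranges of 125 to 166 and 76 to 134.

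How far these calls rest on single pools differed by gene. 5031410I06Rik, Gm5067, Gm6089 and Slc35f6 were called in each of the 12 fits that left out 1 pool. Gm21168 was called in 9 of them, Dnmt3a and Gm11361 in 3, Rpl13a in 2, Htt, Prkdc and Olfm1 in 1 and Hectd4 in 0, with adjusted p of up to 0.133. The number of genes called fell to 4 without wild-type pool 2 or wild-type pool 6, to 5 without wild-type pool 4 or zQ175 pool 2, 4, 5 or 6, and to 6 without wild-type pool 3. The Htt difference of mean log2 levels stayed between -1.38 and -1.15 when any 1 pool was left out.

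A further 12 genes stood closest to the threshold without passing it. In 10 of these 12 the groups did not overlap, against 1.57% of all tested genes. The 12 were picked for a low p in these same pools, so the count is a description. Higher in zQ175 pools were Vamp7, a vesicle fusion protein (87.3 to 106 against 61.1 to 78 CPM, adjusted p = 0.0529), and Rpl41 of the large ribosomal subunit (153 to 196 against 91.4 to 139 CPM, adjusted p = 0.0529). H2-Ke6, a mitochondrial fatty acid synthesis enzyme, C1d, a cofactor of RNA processing, and Gm10260 followed, each with an adjusted p of 0.0848. Lower were Trp53inp1, a stress gene induced by p53 (12.9 to 17.3 against 17.9 to 28.1 CPM, adjusted p = 0.054), and Zdhhc3, which attaches palmitate to proteins (38 to 54.1 against 56.3 to 82.6 CPM, adjusted p = 0.0807). Tmem181a, Tulp4, Prepl, Lmtk2 and Fam13c were lower as well, each with an adjusted p of 0.0848. The groups overlapped for Gm10260 and Fam13c.

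Among genes that were mostly not called, those of 3 large assemblies lay to the same side of 0. Of 81 tested genes for proteins of the cytosolic ribosome, 80 had a log2 fold change above 0, against 48.9% of all genes tested. Their median was 0.30, against -0.0077 for all genes. Of the 81, 65 had an unadjusted p below 0.05 as higher and 1 as lower, and Rpl13a was the 1 called with edgeR. DESeq2 on the same 12 pools called 31 of the 81, all higher, among 213 genes it called higher in all. The highest 3 were Rps21 (80 ± 8.4 against 52.7 ± 11.2 CPM, SD, n = 6 each; log2 fold change 0.60), Rpl41 (0.55) and Rps12 (0.50), named after their values were seen. The member below 0 was Rps2, with 97.6 ± 13.5 against 119 ± 19.2 CPM (log2 fold change -0.28).

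Subunits of oxidative phosphorylation, the mitochondrial respiratory chain and ATP synthase, that are encoded in the nucleus gave a similar picture. Of 76 tested, 72 were above 0, with a median of 0.27, 55 had an unadjusted p below 0.05 as higher and 1 as lower, and 0 were called with edgeR. DESeq2 called 20 of them, all higher, among the 213 genes it called higher in all. Cox6c, of cytochrome c oxidase, was at 338 to 434 CPM (median 374) in zQ175 pools and 217 to 320 (median 286) in wild-type pools, without overlap (log2 fold change 0.43, adjusted p = 0.0848). Atp5j2, of ATP synthase, was at 119 to 148 CPM against 81.7 to 119 (log2 fold change 0.44, adjusted p = 0.0848). Ndufs1, the largest subunit of complex I, went the other way, with 102 to 130 CPM against 131 to 155 and no overlap (log2 fold change -0.22, adjusted p = 0.195). The 13 mRNAs encoded in mitochondrial DNA were not to that side. Their median was -0.08, with 3 above 0 and 0 with an unadjusted p below 0.05.

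Proteasome subunits had a smaller median. Of 34 tested, 29 were above 0, with a median of 0.15, 14 had an unadjusted p below 0.05 as higher and 0 as lower, and 0 were called. Psmb6, a catalytic core subunit, was at 273 to 333 CPM against 190 to 270 and did not overlap (log2 fold change 0.26, adjusted p = 0.182). Psmd13, of the regulatory cap, was at 121 to 137 CPM against 89.5 to 122 (log2 fold change 0.25, adjusted p = 0.17). Members of these lists are not independent of each other, and their counts describe the lists without testing them.

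By pool, a score was taken as the mean log2(CPM + 0.5) of a list, minus its wild-type mean. For the ribosomal proteins it was 0.167 to 0.465 in zQ175 pools (median 0.294) and -0.355 to 0.243 in wild-type pools (median 0.018). For the oxidative phosphorylation subunits it was 0.151 to 0.413 (median 0.276) against -0.339 to 0.186 (median 0.0138). For the proteasome it was 0.0894 to 0.238 (median 0.139) against -0.251 to 0.102 (median 0.0422). In all 3 lists wild-type pool 2 was the lowest pool and wild-type pool 1, the pool with no Y-linked reads, was the highest of its group and overlapped the zQ175 range. Without wild-type pool 2 the medians of the 3 lists were 0.23, 0.21 and 0.11. Without wild-type pool 1 they were 0.35, 0.31 and 0.18.

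**Figure D3:**
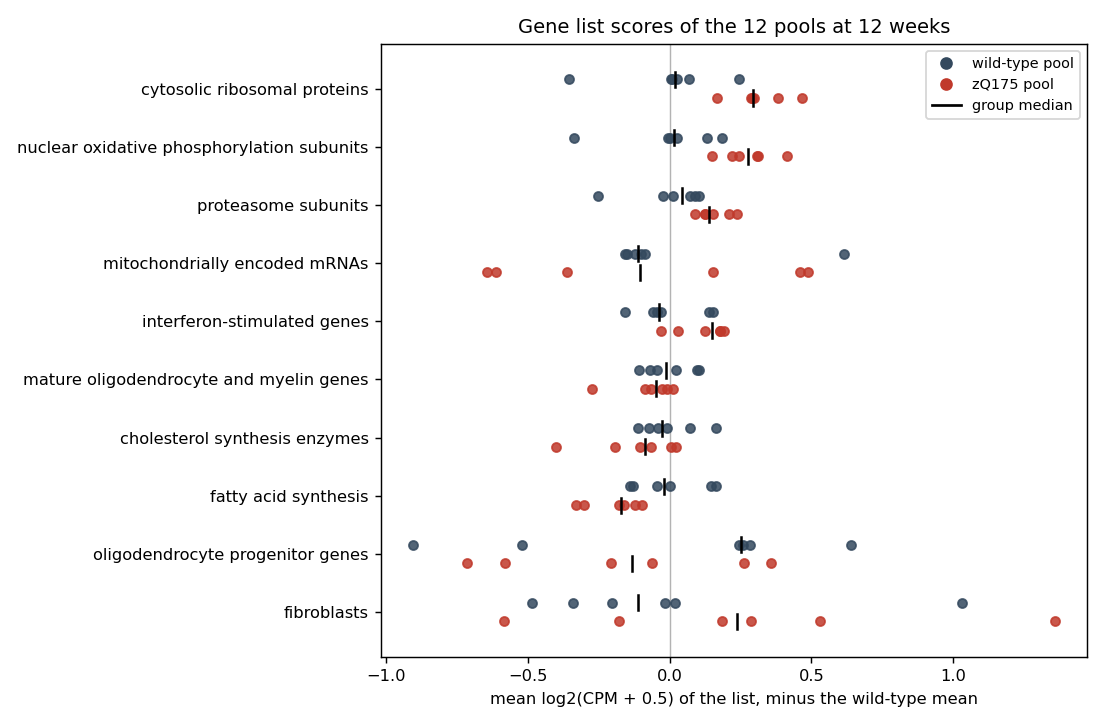
Mean log2(CPM + 0.5) of 10 gene lists in each of the 12 pools at 12 weeks, as the difference from the wild-type mean, with wild-type pools in dark blue, zQ175 pools in red and group medians as black lines. The groups overlap in all 10 lists. Medians of the ribosomal protein, oxidative phosphorylation and proteasome scores are higher in zQ175 pools, and wild-type pool 2 is lowest in each of these 3.

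Fold changes were also graded by transcript length, a measure chosen after seeing the data. Tested genes were split into 10 classes by total exonic length. The median log2 fold change fell in every step, from 0.22 in the shortest class (57 to 1426 bases) to -0.16 in the longest (9651 to 123179 bases). In the shortest class 18% of genes had an unadjusted p below 0.05 as higher and 0.348% as lower. In the longest class the shares were 1.6% and 22.2%. Across 14355 genes, which share the same 12 pools, Pearson's r between fold change and log2 length was -0.3 and Spearman's rho was -0.38. The ribosomal protein genes had a median exonic length of 1770 bases, the oxidative phosphorylation subunits 1737 and the proteasome subunits 2886, against 4191 for all genes tested.

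Each pool was also given a slope of its level deviations on log2 length. The slope was -0.121 to -0.0493 in zQ175 pools and -0.0473 to 0.0977 in wild-type pools, so the groups did not overlap, though their nearest pools, zQ175 pool 3 and wild-type pool 5, were close. The difference of means was -0.0841 (two-sided exact permutation p = 0.00216). The measure was chosen after these same pools had been seen, so this p is a description. With per-pool offsets that remove this length trend, the median was 0.19 for ribosomal proteins (76 of 81 above 0). For oxidative phosphorylation it was 0.13 (67 of 76) and for the proteasome 0.0951 (30 of 34). In the same order, members with an unadjusted p below 0.05 as higher numbered 42, 30 and 9, against 65, 55 and 14 without the offsets. The number of genes called with the offsets was 4, namely 5031410I06Rik, Gm5067, Gm6089 and Slc35f6. A trend in the same direction was present in R6/2 at 6 weeks, whose class medians also fell in every step, from 0.11 to -0.04. In the other 2 comparisons the shortest class was the lowest, at -0.12 for zQ175 at 1 year and -0.16 for R6/2 at 12 weeks. Differences in RNA quality or library preparation were not given in the sources used here, and their part in the length trend was not tested.

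**Figure D4:**
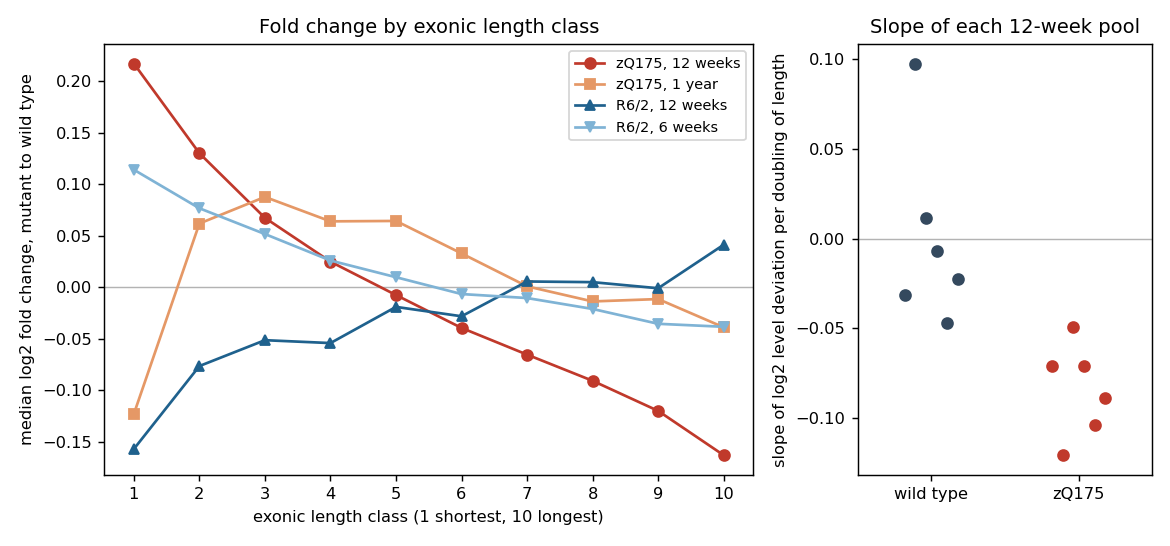
Left, median log2 fold change of mutant against wild type in 10 classes of exonic length, for the 12-week zQ175 comparison (red) and the other 3 genotype comparisons of the series. Right, the slope of each 12-week pool's log2 level deviations per doubling of length. The red line falls from 0.22 to -0.16, and slopes of zQ175 pools (-0.121 to -0.0493) lie below those of wild-type pools (-0.0473 to 0.0977).

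Of the genes of lipid synthesis and myelin, 0 were called with edgeR, and most had a log2 fold change below 0. Of 18 tested fatty acid synthesis genes, 17 were below 0 with a median of -0.20, and 6 had an unadjusted p below 0.05 as lower and 1 as higher. Scd2, the desaturase of oligodendrocytes and the most abundant of those named, was at 5150 to 7730 CPM (median 6510) in zQ175 pools and 7220 to 12100 (median 8660) in wild-type pools (log2 fold change -0.50, adjusted p = 0.105). Fasn, fatty acid synthase, was at 115 to 179 CPM against 148 to 307 (log2 fold change -0.55, adjusted p = 0.13). Me1, which supplies NADPH for the pathway, was at 39.2 to 48.7 CPM against 30.8 to 39.7 (log2 fold change 0.32, adjusted p = 0.128). In each the groups overlapped. DESeq2 on the same pools called 3 of the 18 lower and 1 higher, among 218 genes it called lower and 213 higher in all. With edgeR 12 genes were called in all.

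Of 20 cholesterol synthesis enzymes, 17 were below 0 with a median of -0.10, and 2 had an unadjusted p below 0.05, both lower. They were Lss, lanosterol synthase (29.9 to 40.8 against 33.9 to 53.9 CPM), and Hmgcs1, HMG-CoA synthase (198 to 324 against 280 to 385 CPM), with adjusted p of 0.25 and 0.277. Without zQ175 pool 2, the pool that stood apart, the list's median was -0.0425 and 7 of 20 were above 0. In the other direction, the median was -0.139 without zQ175 pool 1. Without wild-type pool 2 it was -0.128 and 0 of 20 were above 0. Of the sterol regulators, Srebf2, the transcription factor that drives these enzymes, had a log2 fold change of -0.35 (adjusted p = 0.201), and Npc1, a lysosomal cholesterol exporter, of -0.28 (adjusted p = 0.222).

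Of 24 mature oligodendrocyte and myelin genes, 18 were below 0, with a median of -0.12. With 1 pool left out, that median ran from -0.137 without zQ175 pool 4 to -0.0505 without zQ175 pool 2. Mbp was at 8980 to 10100 CPM (median 9380) in zQ175 pools and 8750 to 10400 (median 9980) in wild-type pools. Its log2 fold change was -0.0577, with a 95% interval of -0.204 to 0.0886. Car2, carbonic anhydrase of oligodendrocytes, was the lowest by p, with 2800 to 4700 CPM against 4520 to 5620 (log2 fold change -0.31, adjusted p = 0.205), and Apod, a lipid carrier, was higher, with 3720 to 7480 against 3320 to 4620 CPM (0.34, adjusted p = 0.272). The galactolipid enzymes Ugt8a (-0.29, adjusted p = 0.259) and Fa2h (-0.27, adjusted p = 0.278) were also not called. The regulators Myrf (-0.22, adjusted p = 0.428), Olig2 (-0.14, adjusted p = 0.577), Sox10 (-0.14, adjusted p = 0.76) and Tcf7l2 (-0.18, adjusted p = 0.707) were not called either. Tcf7l2, the factor of the series title, was at 10.8 to 20 CPM (median 18.1) against 14.2 to 29 (median 17.6).

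Whether the genotype effect differed from that of R6/2 at the same age was tested gene by gene as an interaction, each line against its own wild-type littermates, so that no pool is shared. Anything else that differed between the pools of the 2 lines cannot be told apart from the line. Of 16221 genes, 3439 were called (21.2%), 1689 with a higher zQ175 effect (10.4%) and 1750 with a lower one (10.8%). Of 24 myelin genes, 23 were called, and all 23 had a higher zQ175 effect. In the R6/2 line 23 of the 24 had fallen, with a list median of -1.04, where 38.1% of all genes were called and 19.1% were called lower. Mal, a myelin membrane protein, fell 3.61-fold in R6/2 pools, and the zQ175 effect was 1.69 higher on the log2 scale (adjusted p = 1.04e-10). The difference was for Mobp 1.36 (adjusted p = 1.38e-08) and for Mbp 0.80 (adjusted p = 5.97e-08).

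Of the 20 cholesterol enzymes, 10 were called in the same test, all with a higher zQ175 effect, the list median being -0.54 in R6/2 pools. Cyp51, lanosterol demethylase, differed by 1.12 (adjusted p = 1.25e-05), Ebp by 0.78 (adjusted p = 1.08e-05), Idi1 by 0.93 (adjusted p = 5.97e-05) and Dhcr7, the last enzyme of the pathway, by 0.93 (adjusted p = 0.000141). For interferon-stimulated genes the order was opposite, with 11 of 15 called and all with a lower zQ175 effect. Their median log2 fold change was 2.27 in R6/2 pools and 0.14 in zQ175 pools, where 13 could be tested and 11 were above 0. Irf9, part of the factor that carries the interferon signal into the nucleus, was at 1.71 to 6.07 CPM in zQ175 pools and 1.35 to 4.56 in wild-type pools. The lines differed for Rtp4 (-3.84), Irf9 (-3.16) and Ifit3 (-4.48), with adjusted p of 4.13e-07, 4.59e-07 and 5.56e-07. Levels in the zQ175 line were low. Rtp4 was at 1.07 to 2.27 CPM in zQ175 pools and 0.527 to 1.82 in wild-type pools. Ifit3 was at 0.627 to 2.79 and 0.911 to 3.88.

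Oligodendrocyte progenitor genes varied widely among the pools of both groups. Of 22, 18 were below 0 with a median of -0.16, 2 had an unadjusted p below 0.05 and 0 were called. The median was -0.27 without zQ175 pool 1 or wild-type pool 5, -0.36 without zQ175 pool 2 and -0.37 without wild-type pool 4. Medians without each of the other pools are not given here. The pool score was -0.715 to 0.357 in zQ175 pools and -0.904 to 0.638 in wild-type pools, where pools 4 and 5 were low and pool 3 was highest. Pdgfra's difference of mean log2 levels ran from -0.633 without wild-type pool 4 to 0.312 without wild-type pool 3. Neu4's log2 fold change ran from -0.386 to 0.0956 without the same 2 pools. The 2 genes with an unadjusted p below 0.05 were Tnr, tenascin-R, at 1.15 to 6.74 CPM against 2.8 to 13.1 (adjusted p = 0.288), and Cntn1, contactin 1, at 44.4 to 68.8 against 43.4 to 124 (adjusted p = 0.299). In the interaction 12 of the 22 were called, each with a lower zQ175 effect. In R6/2 pools the list median was 1.47, and 15 of the 22 were called higher and 3 lower. Of all 14952 genes tested there, 2848 were called higher and 2856 lower. Among the 12 were Luzp2 (-2.03, adjusted p = 8.51e-09), Cntn1 (-2.04, adjusted p = 4.03e-05), Neu4 (-2.55, adjusted p = 8.25e-05) and the transcription factor Sox5 (-3.75, adjusted p = 0.000107). Sox5 was low in the zQ175 line, at 0.164 to 1.72 CPM in zQ175 pools and 0.513 to 3.06 in wild-type pools.

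**Figure D5:**
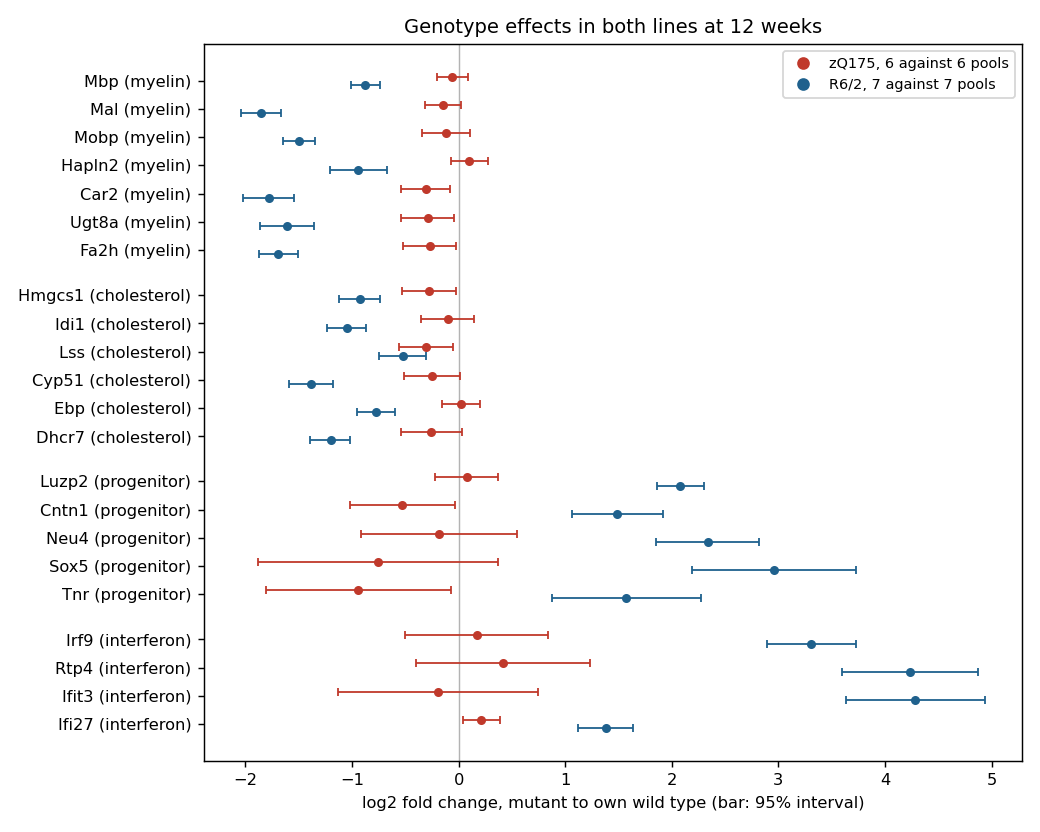
Log2 fold change with its 95% interval for myelin, cholesterol, progenitor and interferon genes in zQ175 pools (red) and R6/2 pools (blue), each against wild-type littermates at 12 weeks. Red points lie between -0.94 for Tnr and 0.42 for Rtp4, while blue points reach -1.85 for Mal and 4.28 for Ifit3. Some of these genes were named for a low adjusted p in the interaction between the lines.

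For ribosomal proteins, too, the lines differed, with 40 of 81 called and all 40 with a higher zQ175 effect. The R6/2 median was -0.25. Of the 76 oxidative phosphorylation subunits, 24 had a higher zQ175 effect and 1 a lower one, where 10.4% and 10.8% of all genes did. Of 34 proteasome subunits, 6 had a higher one and 0 a lower one. Ribosomal protein and oxidative phosphorylation genes are short, and the shortest length class went opposite ways in the 2 lines. Its median was 0.22 in zQ175 and -0.16 in R6/2 at 12 weeks. The interaction was not fitted with the length offsets, so the part of the length trend in it was not tested. Of the 12 genes called at 12 weeks, 12 could be tested for the difference and 11 were called, Dnmt3a being the exception (0.20, adjusted p = 0.377). They were chosen for their zQ175 effect in these same pools, which is a term of this difference, so the count is a description. Dnmt3a was lower in both lines, at -0.84 in R6/2 pools (adjusted p = 7.91e-06). Olfm1 was higher in both, and the zQ175 effect was lower by 1.36 on the log2 scale (difference -1.36, adjusted p = 3.47e-08).

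The lists that follow held 0 called genes, except for Htt in its own list. Of 19 glutamate and GABA receptor genes, 15 were below 0 with a median of -0.20. That median was -0.115 without wild-type pool 3, -0.373 without wild-type pool 5, where 22 genes were tested, and -0.088 with the length correction. Grm3, the metabotropic receptor of oligodendrocyte-lineage and astroglial cells, was at 224 to 327 CPM against 336 to 445 without overlap (log2 fold change -0.39, adjusted p = 0.117). Of 19 potassium channel genes, 15 were below 0, Kcna6 being at 189 to 381 CPM against 322 to 599 (-0.44, adjusted p = 0.229). Of 20 Wnt pathway genes, 13 were below 0, with Apc, which holds beta-catenin in check, at -0.54 (adjusted p = 0.123) and the receptor Lrp6 at -0.44 (18.3 to 25.5 against 26 to 42.3 CPM, no overlap, adjusted p = 0.156). Of 20 huntingtin partners and polyglutamine disease genes, 16 were below 0 with a median of -0.18, and Htt was the 1 called. Their median exonic length was 8120 bases, and with the length correction their median was -0.0693 and 0 were called. Among committed and premyelinating oligodendrocyte genes, Nfasc, the neurofascin of axon contacts, was at 274 to 316 CPM against 331 to 530 without overlap (-0.44, adjusted p = 0.122). Erbb3, a neuregulin receptor, was at 89.3 to 152 CPM against 139 to 255 (-0.50, adjusted p = 0.149), and Qk, which splices myelin transcripts, at 1260 to 1860 against 1770 to 2510 (-0.39, adjusted p = 0.12).

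The cell cycle inhibitor Cdkn1a had the largest fold change among tested genes with a mean log2 CPM of at least 5, at 2.98 on the log2 scale, with 2 pools far above the rest. Pool 2 of the zQ175 group had 1110 CPM and pool 6 had 207, against 35.6 to 61.5 in the other 4 and 5.14 to 59.6 in wild-type pools (adjusted p = 0.244). Among microglial genes Csf1r (7.06 to 17 against 10.5 to 24.8 CPM, adjusted p = 0.179) and Cx3cr1 (1.82 to 7.18 against 2.8 to 15.3 CPM, adjusted p = 0.215) were lower in median, and 11 of 14 tested microglial markers were below 0.

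At 1 year, in separate pools of the same line (5 zQ175 and 4 wild type), the picture was not the same. Of 14951 genes 1 was called there (0.00669%), and it was none of the 12. Of the 12, 9 had the same sign, with Htt at -1.33 (adjusted p = 0.393) and Olfm1 at 0.89 (adjusted p = 0.154). Ribosomal proteins had the opposite sign there, with 81 of 81 below 0, where 51.6% of all genes were above 0. Their median was -0.45, and 62 had an unadjusted p below 0.05 as lower, against 5.33% of all genes. The difference between the ages was tested as an interaction, in which 41 of 16535 genes were called (0.248%), 12 with a higher effect at 1 year (0.0726%) and 29 with a lower one (0.175%). Of those 41, 18 were ribosomal proteins, all with a lower effect at 1 year, and Rpl13a differed by -1.01 (adjusted p = 0.045). Oxidative phosphorylation subunits had a median of -0.0479 at 1 year, and 0 of 76 were called in the interaction. Their median difference in it was -0.347, with 67 of 76 below 0, against -0.0168 for all genes. Of the 76, 35 had an unadjusted p below 0.05 as lower and 0 as higher, against 1032 and 1051 of all 16535 genes. The shortest length class also went opposite ways at the 2 ages, with medians of 0.22 at 12 weeks and -0.12 at 1 year. The part of the length trend in the age difference was not tested. Luzp2 (1.47, adjusted p = 0.045) and Hapln2, a link protein of the node of Ranvier (-0.75, adjusted p = 0.0453), differed by age too. The number of calls in this interaction fell to 0 without any 1 of the 6 zQ175 pools or of wild-type pools 2, 4 and 6. It was 1 without wild-type pool 3, 11 without pool 5 and 46 without pool 1.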

How the data were processed

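The table holds expected counts per gene, which the authors deposited for all 46 libraries and which need not be whole numbers (10% of values in these pools were not). Per the labels' protocols, polyA RNA was made into TruSeq RNA v2 libraries, which do not mark strand, so reads of overlapping antisense genes cannot be told apart. CASAVA, the aligner STAR (2.5.2b) and the counter RSEM (1.3.0) are named in the submitters' processing notes, with GRCh38, a human build. The mouse build is not given in the sources used here. Of 53801 gene identifiers, 53706 matched GENCODE M21 (GRCm38), from which names, positions, lengths and sequences were taken. Positions are those of that annotation.

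Counts were rounded, genes were filtered with filterByExpr, scaled by TMM and tested with edgeR 4.0.16 (R 4.3.3), robust quasi-likelihood, on the 12 pools alone, with Benjamini-Hochberg adjustment over all genes tested and a threshold of 0.05. Interactions were fitted on both lines or both ages. A single value was tested by an exact permutation test, two-sided. Other fits used limma 3.58.1, DESeq2 1.42.0 and sva 3.50.0. The fit was checked on simulated counts. No 2 pools of a group agreed within sampling noise. That pools of a group are separate litters is not stated for each, so p-values measure the spread between these pools.

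The comparison, the gene lists and the tests were chosen with earlier results of these data known. Genes named are Htt, Pdgfra, Mbp, Myrf, Olig2, Sox10 and Tcf7l2, all called genes, the genes nearest the threshold up to 12 per direction, up to 2 per list and direction with the lowest unadjusted p below 0.05, and up to 4 of each of 4 lists in the interactions. A few genes that this rule names are not reported here. Marker genes, near-identical copies and a few others said to be so were named outside this rule. Corrections for exonic length and GC content were added after seeing the data. Of 26 gene lists and 11 marker lists, those not named in the results held 0 called genes, except the protein-coding genes within 5 Mb of Htt, of which 2 of 99 were called.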

Additional observations from a re-analysis of the deposited data

Results flagged for a closer look

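Of 274 groups of 6 pools examined (named genes, list scores and library measures), 22 held a pool far from the other 5. Chance alone gives about 1 in 20 for a single group. The groups come from the same 12 pools and are not independent, so the 22 cannot be set against that rate. Of the 22, 8 were zQ175 pool 2 and 5 were wild-type pool 2. In zQ175 pool 2 the level was lowest for Car2 (2800 CPM), Qk (1260), Ugt8a (758), Tmem181a (15.3) and Zdhhc3 (38.0) and highest for Map1lc3a (178 CPM), while its myelin score was -0.275 and its astrocyte score 0.319. In wild-type pool 2 Ifi27 (90.3 CPM) and Vamp7 (61.1 CPM) were lowest, and its scores were -0.339 for oxidative phosphorylation, -0.251 for the proteasome and 0.186 for the Wnt list. High single pools were Gm21168 in zQ175 pool 4 (13.4 CPM), Olfm1 in zQ175 pool 5 (81.8), Luzp2 in zQ175 pool 1 (67.3), Mal in zQ175 pool 6 (7340) and Gm11361 in wild-type pool 5 (5.87). Further scores were 0.615 for mitochondrial mRNAs in wild-type pool 5, -0.108 for huntingtin partners in zQ175 pool 3, 1.03 for fibroblast markers in wild-type pool 3 and -4.49 for Y-linked transcripts in wild-type pool 1.

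The zQ175 and R6/2 effects at 12 weeks differed by the interaction test for 27 of the named genes, and the 12-week and 1-year effects of zQ175 for 3, of 64 differences examined. Over all genes tested, 21.2% were called by line and 0.248% by age. The genes examined include those named for a low adjusted p in this same test. They also include the 12 called for their zQ175 effect in these pools, so the counts are descriptions. Higher in the zQ175 line, on the log2 scale, were 5031410I06Rik (6.76), Gm6089 (4.64), Gm21168 (3.27), Gm5067 (2.99), Gm11361 (1.75), Mal (1.69), Mobp (1.36), Cyp51 (1.12), Hapln2 (1.03), Dhcr7 (0.932), Idi1 (0.929), Mbp (0.799), Ebp (0.783), Rpl13a (0.733) and Myrf (0.494). Lower were Ifit3 (-4.48), Rtp4 (-3.84), Sox5 (-3.75), Irf9 (-3.16), Neu4 (-2.55), Cntn1 (-2.04), Luzp2 (-2.03), Htt (-1.42), Olfm1 (-1.36), Hectd4 (-0.866), Prkdc (-0.781) and Slc35f6 (-0.439). By age, Luzp2 differed by 1.47, Rpl13a by -1.01 and Hapln2 by -0.75, 1 year minus 12 weeks.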

How the results depend on the processing

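The 12 calls (7 higher, 5 lower) numbered 10 to 14 with RLE or upper-quartile scaling, no filter on low counts, voom, voom with sample weights, a fit that was not robust, or 1 surrogate variable. They numbered 20 (12 higher, 8 lower) at 5 CPM or more in 6 libraries, 431 (213 and 218) with DESeq2, 5 (4 and 1) with 4 groups of the line in 1 fit, 43 (34 and 9) with a covariate for Y-linked transcripts and 200 (81 and 119) with 1 for other cells' markers. With all 8 groups there were 13 (11 and 2). After the length correction there were 4 (3 and 1), and after length and GC 7 (6 and 1), both chosen after seeing the data. With the replicate number as a block there were 4 (4 and 0), of which 3 were among the 12, and with block and length correction 4 (4 and 0). Same-numbered pools did not deviate together (correlations of -0.12 to 0.14, 1 of 6 above 0.1), so the numbers were not taken as pairs. Leaving out 1 pool gave 4 to 11 calls (3 to 9 higher, 1 to 4 lower), 2991 to 3398 for the difference between lines, and 0 to 46 for that between ages, which was 20 without a filter, 327 with DESeq2 and 104 with voom weights. In the Htt comparison the difference ran from -1.38 to -1.15 and in that of Pdgfra from -0.633 to 0.312. The causes were not tested.

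The sign turned for Pdgfra with voom (0.125), voom weights (0.285), 1 surrogate variable (0.0741) and block with length (0.113); for Mbp with length (0.0596), length and GC (0.0757) and block with length (0.0641); for Ebp with voom weights (-0.0163), length (-0.0599), length and GC (-0.0436) and block with length (-0.0582); and for Neu4 with 1 surrogate variable (0.0675), markers (0.0273) and block with length (0.0209). Leaving out 1 pool gave -0.0148 to 0.0628 for Ebp, -0.402 to 0.154 for Ifit3, -0.00844 to 0.138 for Luzp2 and -0.386 to 0.0956 for Neu4. None of these was called. Of 2741 values of 95 genes, 2521 kept side and sign. A further 126 kept the sign but were no longer called, 73 were newly called and 21 had the other sign. Only the 12 called genes could lose a call, so the 2521 rest mostly on genes that were not called.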

Other observations

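Several lists not described above held 0 called genes at 12 weeks. Of 26 extracellular matrix and adhesion genes, 19 were below 0 with a median of -0.13; Ncam1, a neural adhesion molecule, was at 509 to 682 CPM in zQ175 pools and 581 to 878 in wild-type pools, and Sparc, a matrix-binding glycoprotein, was at 113 to 325 against 79.9 to 139. Of 20 chaperone genes, 15 were below 0; Hspe1, the mitochondrial co-chaperonin, was at 84 to 114 CPM against 54.1 to 98.8, and Hsp90ab1 at 778 to 1510 against 1370 to 1940. Of 22 autophagy and lysosome genes, 12 were below 0; Ulk1, the kinase that starts autophagy, was at 20 to 24.3 CPM against 22.4 to 32.7, and Wdfy3, an adaptor for aggregate clearance, at 65.5 to 94.4 against 90.9 to 159. Of 10 mismatch repair genes, 7 were below 0; Msh3, which acts on CAG repeats, was at 18.5 to 30.8 CPM against 23.2 to 34.8, and Lig1, DNA ligase 1, at 6.48 to 10.7 against 10.2 to 12.8. In each of these genes the groups overlapped.

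Of 18 stress and unfolded protein response genes, 10 were below 0, with a median of -0.0159, and Dnajb9, a chaperone of the endoplasmic reticulum, was at 43.7 to 58 CPM against 35.9 to 49.4. Of 21 Notch, BMP and Id genes, 13 were above 0; Id3, an inhibitor of differentiation factors, was at 9.62 to 30.7 CPM against 9.85 to 15.6, and Notch2 at 1.66 to 5.59 against 3.32 to 8.53. The 14 immediate early genes tested had 0 with an unadjusted p below 0.05 in either direction.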
